A study of Mus musculus with 4 samples.

Results

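The genes described here are the D-type cyclins (Ccnd1, Ccnd2 and Ccnd3), the kinases that they activate (Cdk4 and Cdk6), the retinoblastoma family (Rb1, Rbl1 and Rbl2) and a pair of E2F transcription factors that Rb restrains (E2f1 and E2f2). They were taken by gene symbol, and all 10 of 10 were found among the 22180 genes measured. None of the 10 passed the test over all genes (limma, adjusted p under 0.05), nor did any gene of the table (0%). Ccnd2, Cdk4, Rbl1 and Rbl2, 4 of the 10, were lower on each array of the cells transfected against NF90 than on each control array. Their means were 1.14-fold to 1.19-fold lower. This pattern was found in 17.9% of all genes, and in 21.8% of genes at or above the median level, as these 4 were. E2f2 and Cdk6, 2 of the 10, were higher in the same sense, as were 21.9% of all genes. Cdk6 lay far below the array medians, and its groups were only 0.06 apart. E2f1 and Rb1 had nearly the same mean in both groups.

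A mitogen reaches the cell cycle through the D cyclins. A D cyclin binds Cdk4 or Cdk6, and the active kinase phosphorylates Rb and its relatives p107 (Rbl1) and p130 (Rbl2), which then release E2F factors and let the genes of DNA synthesis be transcribed. In mouse beta cells cyclin D2 and Cdk4 are the members best known for a need in postnatal growth. Beta-TC-6 is a tumour line from a mouse whose beta cells carried the large T antigen of a simian virus under an insulin promoter, and this antigen binds the Rb family proteins. The levels below are of RNA and say nothing of phosphorylation or of binding by T antigen.

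The cells, an established line named Beta-TC-6, were grown in medium with 25 mM glucose and 15% serum. One group received a mixture of siRNA duplexes against NF90, a double-stranded RNA-binding protein (siNF90), and the other a negative control siRNA (siNTC), both with a lipid reagent. Each group had 2 Affymetrix Mouse Gene 2.1 ST arrays, made from 250 ng of total RNA each. The labels used here give no time after transfection, and the depletion of NF90 itself was not analysed here; siNF90 therefore stands for a label. The labels do not state separate cultures for the 2 arrays of a group, so the p-values reflect no more than the spread among the arrays, and this spread may be technical.

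Levels are the authors' log2 values, in which 1 unit is a factor of 2, and a difference is siNF90 minus siNTC. Array medians lay between 1.65 and 1.68, and the median difference over all genes was 0.02. Background was not recorded in the table, so it is not known whether a gene with a low value was detected, and levels of different genes are not compared because each probe set has its own response. As a guide to low values, the median of all gene means was 1.85. The mean of the higher group reached it for 8 of the 10 genes and not for Ccnd1 and Cdk6. In bulk RNA, fewer cells in a phase of the cycle and less RNA per cell cannot be told apart.

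The labelled cell type was compared with marker genes. Of 11 beta cell markers 10 were measured, and all 10 lay at or above the median level, among them Ins2 (insulin) at 7.98 and 8 in siNTC and 7.88 and 8.01 in siNF90, Pdx1 between 6.83 and 7.03, and Neurod1 between 3.65 and 3.98. Not all of the 10 were steady: 3 had an unadjusted p under 0.05 in limma, where 10.3% of all genes did. With a level-dependent prior, in which the prior variance follows expression level, 1 passed, where 0.455% of all genes did. That 1 was Slc2a2 (the glucose transporter GLUT2), at 6 and 5.8 in siNTC and 4.78 and 4.86 in siNF90 (-1.08 ± 0.13; adjusted p = 0.342, and 0.0153 with the level-dependent prior), while Nkx6-1 differed by 0.45 ± 0.12 and Mafa by 0.38 ± 0.15. Their part in the results below was not tested. Gcg (glucagon, a hormone of alpha cells) stood between 8.5 and 8.88, so hormone genes of other islet cells were also present. Of 7 markers of stromal, endothelial and blood cells, 1 lay at or above the median level, and the summed log2 level of the 7 was 10.82 to 11.09 in siNTC and 11.74 to 11.91 in siNF90. That 1 marker was Cd68, with a difference of 1.13 ± 0.12 (log2, SE). It did not pass in limma (adjusted p = 0.342) and did with the level-dependent prior (0.0217). The part of Cd68 in the results below was not tested. Over the 7 markers, 3 differences were above 0 and 4 below. The 6 measured exocrine and duct markers summed to 9.94 and 10.40 in siNTC and to 10.04 and 10.75 in siNF90.

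Cyclin D2 (Ccnd2), the D cyclin best known in beta cells, stood at 7.40 and 7.27 on the siNTC arrays and at 7.08 and 7.11 on the siNF90 arrays. The siNF90 arrays were both lower than the siNTC arrays, with 0.16 between the nearest arrays of the groups against 0.13 between the siNTC arrays. The difference was -0.24 ± 0.12 (log2, SE; means 7.34 ± 0.09 and 7.1 ± 0.02, SD, n = 2 arrays each), a 1.18-fold lower level. It missed the threshold over all genes (limma, adjusted p = 0.562), and its 95% interval ran from -0.54 to 0.06.

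Cyclin D1 (Ccnd1), the D cyclin that growth factors induce in many cell types, stood at 1.01 and 1.24 in siNTC and 1.16 and 1.45 in siNF90. The groups overlapped, and all 4 values lay below the array medians. The difference was 0.18 ± 0.16 (adjusted p = 0.754 in limma). Cyclin D3 (Ccnd3), the D cyclin known for its role in lymphocytes, stood at 2.25 and 2.78 in siNTC and 2.36 and 2.44 in siNF90. Both siNF90 values lay between the siNTC values. The siNTC arrays of Ccnd3 differed by 0.53, the widest gap within a group among the 10 genes, and its difference of -0.12 ± 0.19 became 0.15 without the second siNTC array.

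Whether the D cyclins moved unequally was asked within each array, where the distance between a pair of genes was compared between the groups. The distance of Ccnd2 from Ccnd1 changed by -0.42, and relative to the siNTC mean it was 0.18 and -0.18 on the siNTC arrays and -0.29 and -0.55 on the siNF90 arrays. The groups did not overlap for this pair, nor for Ccnd3 against Ccnd1 (a change of -0.3), and they overlapped for Ccnd3 against Ccnd2 (0.13). With each array left out, the change ranged from -0.6 to -0.24 for Ccnd2 against Ccnd1, from -0.45 to -0.15 for Ccnd3 against Ccnd1, and from -0.21 to 0.46 for Ccnd3 against Ccnd2, which turned below 0 without the first siNTC array. In an exact permutation test of 2 arrays against 2, two-sided, p was 0.333 for the 2 pairs with Ccnd1 and 1 for the third. The smallest p that this design allows is 0.333, so none of these pairs could pass. Because Ccnd1 lay below the array medians, its part in these distances rests on values whose background is unknown.

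Cdk4, the kinase partner of the D cyclins in beta cells, stood at 8.16 and 8.05 in siNTC and 7.84 and 7.94 in siNF90. Again both siNF90 values were the lower ones, by at least 0.11, which is as wide as the gap between the siNTC arrays (0.11). The difference was -0.22 ± 0.12, a 1.16-fold lower level (means 8.11 ± 0.08 and 7.89 ± 0.07, SD, n = 2 each; adjusted p = 0.609 in limma). Cdk6, the other kinase of the D cyclins, stood at 0.75 and 0.74 in siNTC and 0.83 and 0.81 in siNF90, far below the array medians on all 4 arrays. Its groups did not overlap because the arrays of a group differed by at most 0.02, and the difference was 0.08 ± 0.12 (adjusted p = 0.871). The distance of Cdk6 from Cdk4 changed by 0.29, with groups that did not overlap (exact permutation test, p = 0.333, again the smallest possible).

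**Figure D1:**
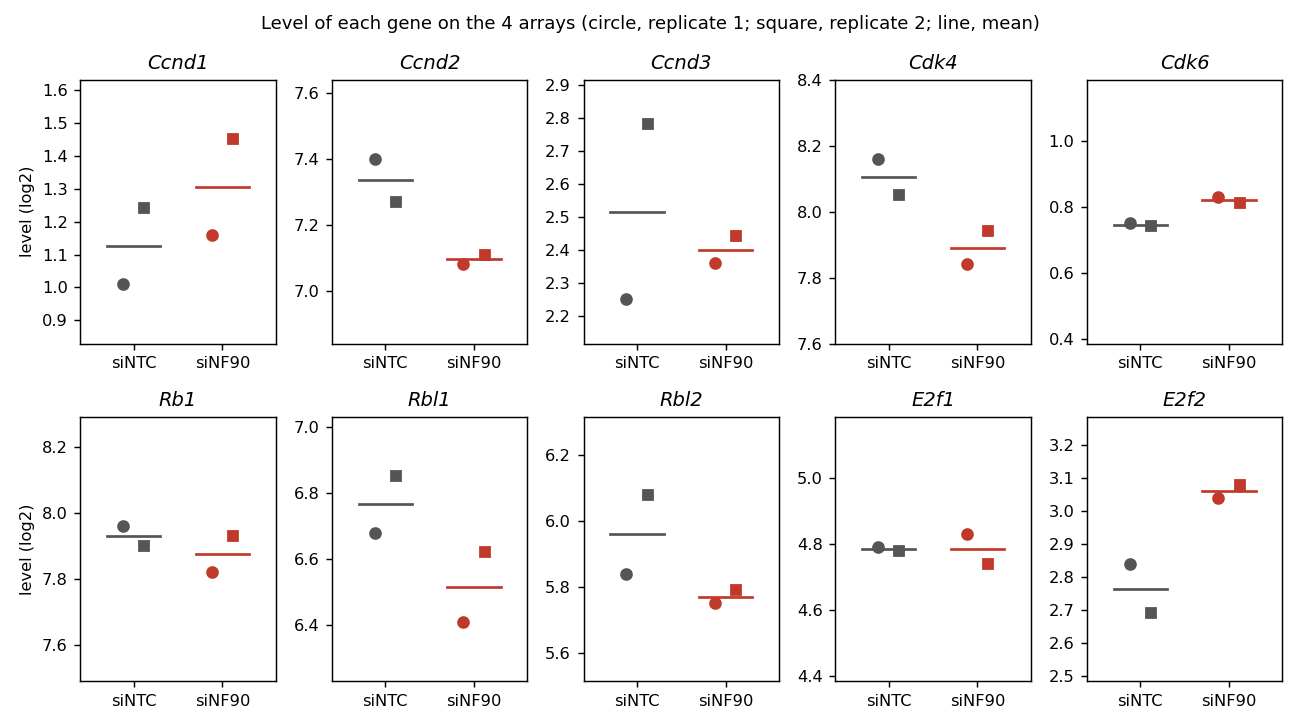
Each panel plots the log2 level of 1 gene on the 2 siNTC arrays (grey) and the 2 siNF90 arrays (red), with a line at each mean; all panels span 0.8 log2 units, so distances can be compared between panels but levels cannot. The siNF90 points of Ccnd2, Cdk4, Rbl1 and Rbl2 lie below the siNTC points, those of Cdk6 and E2f2 lie above, and the points of Ccnd1, Ccnd3, Rb1 and E2f1 overlap.

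Rb1, the retinoblastoma protein gene, stood at 7.96 and 7.90 in siNTC and 7.82 and 7.93 in siNF90. The groups overlapped, and the difference of -0.06 ± 0.12 was smaller than the gap of 0.11 between the siNF90 arrays. Its 95% interval, from -0.35 to 0.24, spans a level from 1.28-fold lower to 1.18-fold higher. The table holds a second probe set with Rb1 as its only symbol (17308568), which was not used because its mean is lower, and it read 1.09 and 2.00 in siNTC and 1.56 and 0.98 in siNF90. A further 2 probe sets carry Rb1 together with Lpar6, a receptor gene that lies inside Rb1, and differed by 0.04 and 0.03.

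Rbl1, which encodes p107, the family member that accumulates as cells enter the cycle, stood at 6.68 and 6.85 in siNTC and 6.41 and 6.62 in siNF90. Both siNF90 values were below the siNTC values, but only by 0.06, while the arrays within a group differed by 0.17 and 0.21. The difference was -0.25 ± 0.14, a 1.19-fold lower level (adjusted p = 0.599 in limma). Rbl2, which encodes p130, the family member that binds E2F in resting cells, stood at 5.84 and 6.08 in siNTC and 5.75 and 5.79 in siNF90. The groups were 0.05 apart, and the siNTC arrays differed by 0.24. The difference was -0.19 ± 0.14 (adjusted p = 0.688), and it was -0.07 without the second siNTC array, so the higher of the siNTC values carried most of it.

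E2f1, an activator of S-phase genes, stood at 4.79 and 4.78 in siNTC and 4.83 and 4.74 in siNF90. The siNF90 values lay on either side of the siNTC values, the means were both 4.79, and the 95% interval of the difference ran from -0.29 to 0.29. E2f2, a second activator of the same class, stood at 2.84 and 2.69 in siNTC and 3.04 and 3.08 in siNF90. Both siNF90 values were above the siNTC values by at least 0.2, wider than the gap of 0.15 within siNTC. The difference of 0.3 ± 0.12, which is 1.23-fold higher, was the largest of the 10 genes and had the smallest unadjusted p (0.0549), and it did not pass over all genes (adjusted p = 0.495 in limma).

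Promoter sequence is shown for Cdk4, Rbl1 and Rbl2, the genes with lower values on both siNF90 arrays for which the RefSeq table (build GRCm38.p6) holds one. The table matched 7 of the 10 genes, with 9 windows in all; Ccnd1, Ccnd2 and Rb1 are named only. Each sequence is the 250 bases before the annotated start, read 5′ to 3′ on the gene's own strand. Capitals mark matches on either strand to the E2F site TTTCGCGC, the E-box CACGTG (the element of Myc and related factors) or the GC box GGGCGG, whose other strand reads CCGCCC. The CCAAT box CCAAT and the TATA box TATAAA were searched too and had no match in these 3 windows, and no matches overlapped.
Cdk4, chr10:127063285-127063534, plus strand: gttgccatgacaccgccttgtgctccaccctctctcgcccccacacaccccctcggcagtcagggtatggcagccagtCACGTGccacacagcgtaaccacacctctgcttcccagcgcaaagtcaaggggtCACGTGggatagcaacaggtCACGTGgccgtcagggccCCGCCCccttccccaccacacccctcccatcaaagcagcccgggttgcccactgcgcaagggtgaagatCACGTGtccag
Rbl1, chr2:157204535-157204784, minus strand: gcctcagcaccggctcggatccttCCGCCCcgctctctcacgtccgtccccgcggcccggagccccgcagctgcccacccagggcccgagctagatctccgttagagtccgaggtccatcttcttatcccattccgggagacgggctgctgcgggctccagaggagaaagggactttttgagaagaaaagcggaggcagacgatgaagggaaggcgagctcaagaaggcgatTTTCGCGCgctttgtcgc
Rbl2, chr8:91069807-91070056, plus strand: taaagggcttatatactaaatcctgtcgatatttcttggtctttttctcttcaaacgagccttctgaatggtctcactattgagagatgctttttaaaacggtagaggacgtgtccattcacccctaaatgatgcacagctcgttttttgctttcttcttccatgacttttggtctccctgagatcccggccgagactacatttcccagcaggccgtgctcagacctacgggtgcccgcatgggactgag

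The Cdk4 window holds 4 E-boxes and 1 GC box. An E-box is in 6.02% of all 32851 windows, and among the windows of these genes also in that of Cdk6. The Rbl1 window holds 1 E2F site, whose first base lies 18 bases before the start, and 1 GC box. That E2F site is in 0.256% of all windows and in no other window of these genes. Variants of its letters were not searched. Whether each window lies before the start that these cells use was not examined, so a promoter elsewhere may hold the site. The Rbl2 window holds none of the 5 motifs. A GC box, in 32.7% of all windows, is in 6 of the 9. The Cdk4 and Rbl1 windows thus shared the GC box and differed in the E-box and the E2F site. Ccnd2, also lower on both siNF90 arrays, had no window. A match is a string of letters and not a measured site, and no match speaks only of this window.

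Read over all 10 genes, 6 differences were below 0, 3 above and 1 at 0, with a median of -0.09. Over all 22180 genes 45.8% were below 0 and 53.1% above, with a median of 0.02. The groups did not overlap for 6 of the 10, 4 lower (17.9% of all genes) and 2 higher (21.9%), where 39.8% of all genes had groups that did not overlap. The 4 lower genes lay at or above the median level, where 21.8% of genes were lower in this way. Of the 2 higher genes, Cdk6 lay far below the array medians. In limma's test 0 of 10 passed at an adjusted p under 0.05, the same share as over all genes (0%), and 0 of 10 had an unadjusted p under 0.05, where 10.3% of all genes did (5.87% higher and 4.41% lower). Adjusted p-values of the 10 lay between 0.495 and 1. With the level-dependent prior, an alternative setting, 0.455% of all genes passed and again 0 of the 10 (lowest adjusted p = 0.243, for Ccnd2).

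Standard errors of the 10 differences lay between 0.12 and 0.19, and every 95% interval included 0. The end of an interval farthest from 0 was 0.6, for E2f2, so differences beyond 1.51-fold lay outside all 10 intervals.

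**Figure D2:**
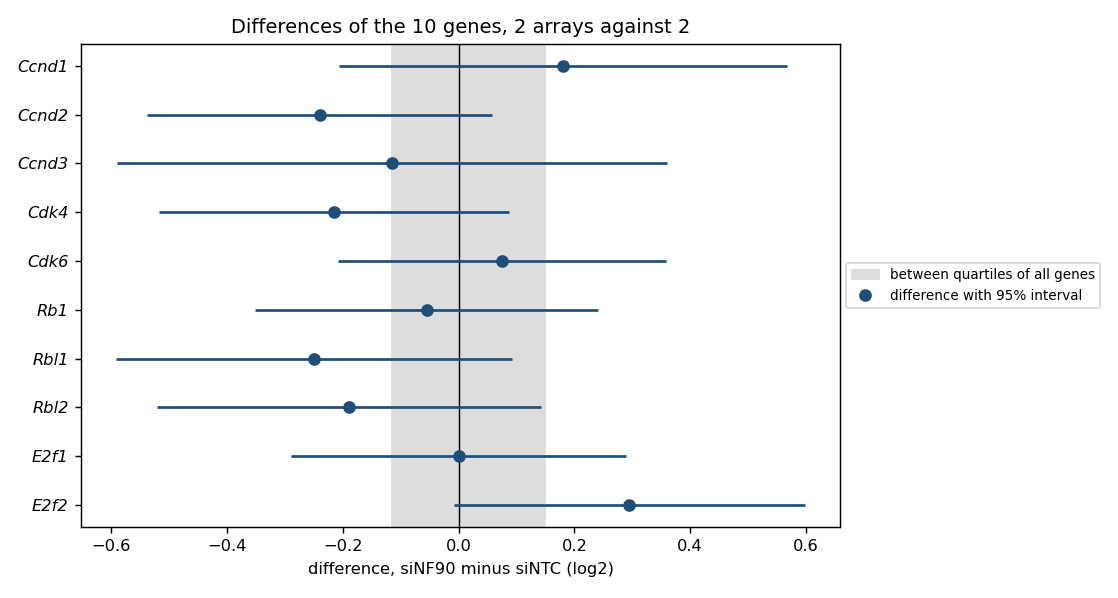
Points are the differences, siNF90 minus siNTC (log2), of the 10 genes and bars their 95% intervals from the limma fit; the grey band runs between the quartiles of all genes, from -0.12 to 0.15. Every bar crosses 0, Ccnd2, Cdk4, Rbl1 and Rbl2 have points left of the band, and Ccnd1 and E2f2 have points right of it.

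Each array was left out in turn to see how far a single array carried a difference. The sign was kept for 7 of the 10 genes: Ccnd2 stayed between -0.31 and -0.18, Cdk4 between -0.27 and -0.16, Rbl1 between -0.36 and -0.15, Rbl2 between -0.31 and -0.07, E2f2 between 0.22 and 0.37, Cdk6 between 0.07 and 0.09, and Ccnd1 between 0.04 and 0.33. Rb1 reached 0 without the first siNF90 array, E2f1 lay between -0.05 and 0.05, and Ccnd3 changed sign. For the 6 genes whose groups did not overlap, a kept sign follows from that and is no further evidence.

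**Figure D3:**
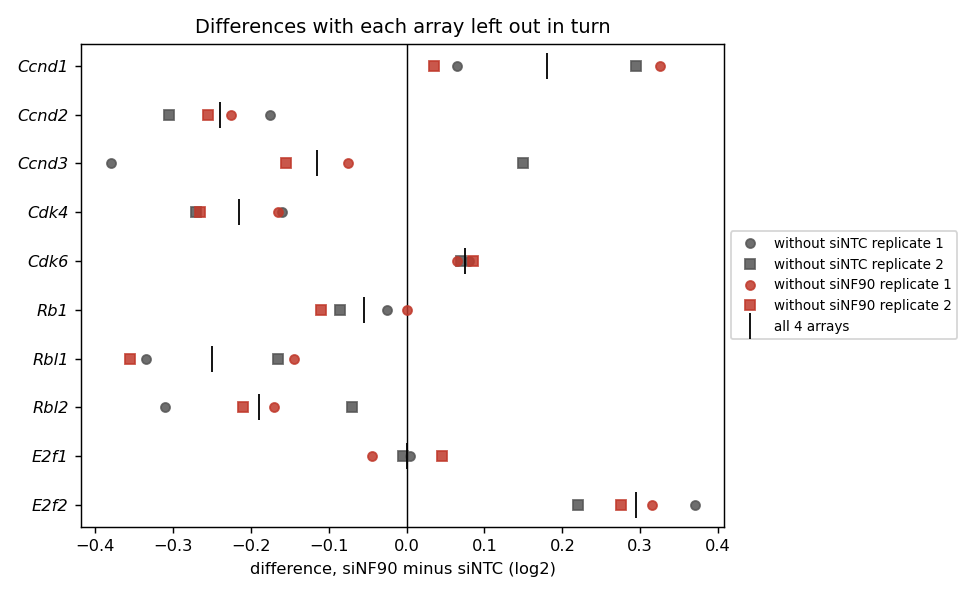
For each gene the black tick is the difference over all 4 arrays, and the 4 symbols are the differences (log2) with 1 array left out, grey for a siNTC array and red for a siNF90 array. The symbols of Ccnd2 and Cdk4 stay within 0.13 and 0.11 of each other, while those of Ccnd3 run from -0.38 to 0.15.

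The genes whose pattern lay nearest to E2f2, the member with the smallest p, were Satb1, Smim4 and Unc13b. Likeness was the root mean square distance over the 4 arrays between values centred on each gene's mean, and it was 0.0043 log2 units for Satb1 and 0.0083 for the other two. Each differed by 0.29 between the groups. With 4 arrays, 11091 genes were searched, so a close match describes these arrays only.

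Genes that act with these 10 were followed in 8 lists of 67 genes, of which 63 were measured. In limma's test over all genes 0 of the 63 passed, 8 had an unadjusted p under 0.05 (3 higher and 5 lower), where 10.3% of all genes did (5.87% higher and 4.41% lower). With the level-dependent prior 2 passed, Cdkn1a and Hells, where 0.455% of all genes did.

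The listed inhibitors of cyclin-dependent kinases (CDK), not all of them specific to Cdk4 and Cdk6, differed among themselves. Of 7 CDK inhibitors, 5 differences were above 0 and 2 below, with a median of 0.07 (0.02 to 0.15 with each array left out). Cdkn1a (p21) stood at 6.33 and 6.39 in siNTC and 7.42 and 7.33 in siNF90, a difference of 1.02 ± 0.12 that did not pass (adjusted p = 0.342 in limma) and did with the level-dependent prior (0.00633). Cdkn1b (p27) had the lowest difference of the list, -0.16 ± 0.12, at 7.24 and 7.17 in siNTC and 7.04 and 7.06 in siNF90. The other E2F factors and their DP partners had 5 of 8 above 0 and 3 below (median 0.07, and 0.01 to 0.12 with each array left out). E2f5, a factor bound mainly by p130 and p107, stood at 3.35 and 3.28 in siNTC and 3.93 and 3.88 in siNF90, 1.51-fold higher (0.59 ± 0.12, adjusted p = 0.357, and 0.159 with the level-dependent prior). E2f8, an atypical E2F that represses, had the lowest difference at -0.25 ± 0.12.

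Downstream of Rb, 16 of 20 measured E2F target genes of DNA synthesis were below 0 and the other 4 above, and their median was -0.11. Over all genes 45.8% were below 0. The groups did not overlap for 10 lower and 4 higher genes of the 20, against 17.9% lower and 21.9% higher over all genes. All 20 lay at or above the median level, where 21.8% of genes were lower in this way. The median difference of the 20 lay between -0.14 and -0.08 when each array was left out. Of the genes below 0, Mcm2, Cdc6, Tyms, Ung and Chaf1a turned above 0 in at least 1 of these runs. Hells, a chromatin remodeller of the SNF2 family, had the lowest difference, at 7.77 and 7.84 in siNTC and 7.35 and 7.29 in siNF90. That is 1.4-fold lower (-0.49 ± 0.12), without passing over all genes (adjusted p = 0.364 in limma) and passing with the level-dependent prior (0.0307). Orc1, a subunit of the origin recognition complex, had the highest difference at 0.43 ± 0.18 (0.25 to 0.61 with a siNF90 array left out), and Rrm2, a subunit of ribonucleotide reductase named after its value was seen, had the same difference (0.43 ± 0.15).

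The step that follows Rb phosphorylation, with cyclins E and A and Cdk2, had 5 of 7 differences below 0 (median -0.06, and 0.03 without the second siNTC array). Ccna2 (cyclin A2), needed for S phase and entry into mitosis, stood at 7.51 and 7.55 in siNTC and 7.24 and 7.17 in siNF90, 1.25-fold lower (-0.33 ± 0.12, adjusted p = 0.455 in limma). Ccna1, the germ line cyclin A, had the highest difference at 0.32 ± 0.14, from siNTC values below the array medians. The MuvB core, which p107 and p130 join to form a repressor complex, was listed together with B-Myb, which is not part of that complex. This list had 3 of 6 above 0 (median -0.02, between -0.09 and 0.03 with each array left out). Its lowest difference was that of Lin9 (-0.32 ± 0.13) and its highest that of Lin54 (0.16 ± 0.12).

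The 3 genes of the CDK-activating kinase had a median of -0.1 (-0.19 to -0.01 with each array left out), with Cdk7 at 0.14 ± 0.16 and Mnat1 at -0.13 ± 0.15; each changed sign when the second siNTC array was left out. Among 5 genes of D cyclin turnover, 4 were above 0 (median 0.04, and -0.04 to 0.21 with each array left out), with Fbxo4, an F-box protein, at 0.31 ± 0.21 (0.04 without the first siNTC array and 0.58 without the second) and the kinase Gsk3b at -0.13 ± 0.18. Gsk3b read 7.74 and 7.26 on the siNF90 arrays against 7.62 and 7.64 in siNTC, so its lower mean came from the second siNF90 array. Of 7 measured chromatin partners of the Rb family, 4 were above 0 (median 0.02, and -0.02 to 0.06 with each array left out), with the histone demethylase Kdm5a at 0.09 ± 0.12 and the deacetylase Hdac1 at -0.15 ± 0.15.

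**Figure D4:**
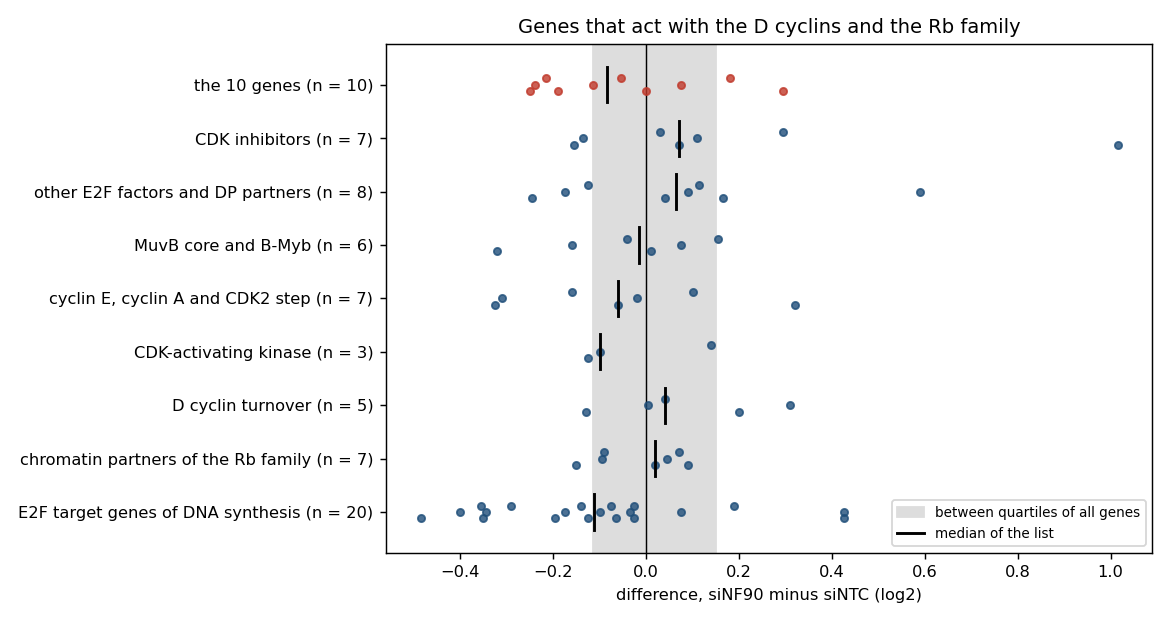
Each point is the difference, siNF90 minus siNTC (log2), of 1 gene; rows are the 10 genes (red) and the 8 lists (blue), black ticks are medians, and the grey band runs between the quartiles of all genes. Cdkn1a at 1.02 and E2f5 at 0.59 lie farthest to the right, and most E2F target genes lie left of 0.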

How the data were processed

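The labels give 2 siNTC and 2 siNF90 samples, each on 1 array. The authors deposited 1 table of log2 values for 41345 probe sets, for which the submitters' processing notes name Transcriptome Analysis Console. Of its version, the normalization and the build, none is stated; base 2 was inferred from the range (-0.28 to 12.01). Probe sets with 1 symbol in the platform annotation were kept (23521), and the one with the highest mean was used for each gene. All genes were fitted together with limma 3.58.1 in R 4.3.3 (lmFit, eBayes without a trend; 2 residual and 3.92 prior degrees of freedom), two-sided, with Benjamini-Hochberg adjustment over 22180 genes and a threshold of 0.05. The code was tested on simulated data in which 200 genes were changed by 1 or 2 log2 units. At the same threshold 39.3% of the changes of 1 unit and 95.5% of those of 2 units were recovered. The simulated spread did not vary with expression level, so these shares may differ in the real data. Smaller changes were not simulated, and the differences of the 10 genes were all smaller than 1 unit. The number of arrays limits the precision.

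The 10 genes and the lists were chosen with earlier results of these data known. Named were all 10 genes, from each list the genes past the threshold or else its highest and lowest difference, Ins2, Pdx1, Neurod1 and Gcg, and the 3 genes nearest to the member with the smallest p. Other genes were named after their values were seen. Some listed genes are not reported here. Alternatives were a trend or robust prior, centring on medians or quantile normalization, a level filter, other uses of probe sets, the replicate block and leaving out each array.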

Additional observations from a re-analysis of the deposited data

How the results depend on the processing

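None of the 10 genes passed the threshold under any alternative run (lowest adjusted p = 0.243), and 0 of their 78 values with all 4 arrays changed sign. The filter on level left out Ccnd1 and Cdk6. With a variance prior with a trend 101 genes passed over the whole table, against 0 without it, and 2 genes of the lists did. Under every other alternative both counts were 0. Leaving out each array in turn gave 0 genes past the threshold, over the whole table, among the 10 and in the lists; the lone array of a group is then assumed to vary like the other group. The median of the 10 differences, -0.09 with all arrays, ranged from -0.13 to -0.04 over these, and was -0.14 with probe sets averaged per gene and -0.15 with the filter on level. Rb1 was at -0.17 with the mean of its probe sets. Signs were followed for the 10 genes and for the highest and lowest of each list. Without the second siNTC array they changed for Ccnd3 (-0.38 to 0.15 over the 4 arrays left out) and Cdk7 (-0.05 to 0.33). The same held for Mnat1 (-0.275 to 0.025) and Hdac1 (-0.305 to 0.005). Without the second siNF90 array the sign of Gsk3b changed (-0.37 to 0.11). Other listed genes, such as E2f3, and the markers Ins2 and Pdx1 changed sign with an array left out as well. The cause of these changes was not tested. With the replicate number as a block, 0 genes passed. Arrays of the same number did not deviate together (r = -0.02 across genes, which are not independent), so the numbers are not taken to pair the arrays.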
